A study of Caenorhabditis elegans with 30 samples.

Results

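This comparison set pek-1 mutant Caenorhabditis elegans against wild type, both fed bacteria for RNAi against pmt-2. It rests on 6 of the 30 arrays of the study, 3 from each genotype, chosen by their labels alone. The tested animals carried a knockout of pek-1 on pmt-2 RNAi, and the labels give no allele. Set against them were animals of the wild-type strain N2 on the same RNAi. Per the labels' protocols, all animals were raised from the first larval stage (L1) to young adulthood with 25 µg/mL carbenicillin and 1 mM IPTG, and 300 ng of total RNA of whole animals went to each Affymetrix array. The other arrays used here were 3 of the pek-1 mutant and 3 of wild type on the empty vector L4440, and 3 each of the ire-1 mutant and the atf-6 mutant on pmt-2 RNAi. The source labels of the wild-type RNAi group and of a wild-type tunicamycin group are exchanged against their titles, and the titles were followed. No label states that arrays of 1 group were grown as separate cultures, so the p-values measure the spread between arrays, which may be technical.

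PEK-1 is the worm homologue of the kinase PERK, which, like IRE-1 and ATF-6, senses stress of the endoplasmic reticulum (ER). When active it phosphorylates the translation initiation factor eIF2alpha, which lowers protein synthesis overall and favours translation of factors such as ATF-4, a branch known as the integrated stress response. pmt-2 encodes a phosphoethanolamine methyltransferase that acts after pmt-1 in making phosphatidylcholine, the most abundant phospholipid of membranes, and loss of that lipid is known to stress the ER membrane. The comparison asks how the transcripts of animals short of this enzyme differ when PEK-1 is missing.

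Values are log2 signals after RMA normalisation for 28387 probe sets, and a difference of 1 is a 2-fold change. Differences were tested with limma over all 30 arrays, with p-values adjusted over all probe sets and a threshold of 0.05. Of the 28387 probe sets, 1149 passed (4.05%), 816 of them higher in the pek-1 mutant (2.87%) and 333 lower (1.17%). A 2-fold difference was reached by 387 of the higher and 33 of the lower ones. Of the 28387 probe sets, 17463 had a mean log2 signal under 5 in both genotypes, and these held 259 of the calls. The share of 4.05% is thus lower than the share among brighter probe sets. List genes were read from their brightest probe set, so list counts can exceed the overall shares for that reason. Among the calls, rises were both more numerous and larger than falls, while the median difference over all probe sets was -0.02. Without regard to the test, the 3 arrays of each genotype did not overlap for 16.7% of the probe sets, 8.07% higher and 8.68% lower in the pek-1 mutant, and 14.9% had an unadjusted limma p under 0.05.

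The 3 wild-type arrays on RNAi differed from each other more than those of any other group, with a median SD of 0.194 per probe set against 0.147 in the pek-1 mutant on RNAi. Among the 816 probe sets called higher, wild-type array 2 was the highest of the 3 wild-type arrays for 693 and wild-type array 1 the lowest for 599. The pek-1 mean stood a median of 1.29 above wild-type array 1, 0.44 above array 2 and 1.08 above array 3 over these probe sets. The test shares 1 spread per probe set over all 10 groups. With the spread of the 6 compared arrays alone 95 probe sets passed, 73 higher and 22 lower. A fit that weights the arrays of each group by their scatter called 847, of which 846 were among the 1149. Where a gene passed with the 6 arrays alone as well, its sentence or paragraph says so. Of 91 called genes chosen for naming, 50 also passed in each of the 6 fits that left out 1 array, and 41 lost the call in at least 1.

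**Figure D1:**
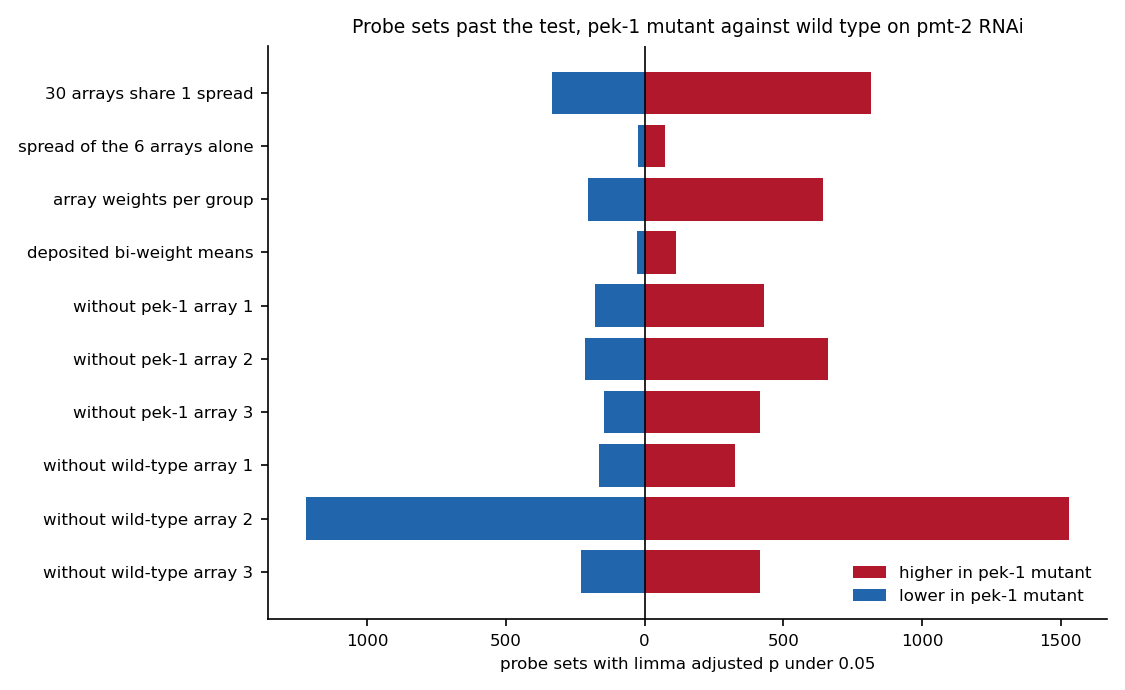
Number of probe sets with a limma adjusted p under 0.05 (x axis, higher in the pek-1 mutant to the right, lower to the left) when 30 arrays share 1 spread and under 9 other settings. The count is 1149 with 30 arrays, 95 with the spread of the 6 arrays alone, and runs from 493 without wild-type array 1 to 2750 without wild-type array 2.

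The targeted genes were read first. pek-1 (F46C3.1, chromosome X, 11410117 to 11414747, build not given in the sources used here) had log2 signals of 7.81, 7.73 and 7.55 in the pek-1 mutant on RNAi, against 8.72, 8.81 and 8.63 in wild type on RNAi. It fell by 1.02 (SE 0.10, limma adjusted p = 7.19e-07, also past the test with the 6 arrays alone). The groups did not overlap, and signal remained in the mutant. The sources used here do not state which part of the gene is deleted. On vector pek-1 was lower by a like amount, a difference of -0.84 (SE 0.10, limma adjusted p = 0.000109).

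pmt-2 (F54D11.1) lies on chromosome V at 4628566 to 4635252. Its signals were 7.07, 7.25 and 7.27 in the pek-1 mutant on RNAi, against 6.80, 6.65 and 6.45 in wild type on RNAi. The knocked-down transcript thus stood higher in every pek-1 array than in any wild-type array, by 0.57 (SE 0.11, limma adjusted p = 0.00354; 0.17 with the 6 arrays alone). On vector its means were 10.10 ± 0.07 in the pek-1 mutant and 10.14 ± 0.07 in wild type (SD, n = 3 arrays each). On RNAi the ire-1 mutant stood at 7.47 ± 0.11 and the atf-6 mutant at 6.74 ± 0.20 (SD, n = 3 arrays each). The part that this difference in residual pmt-2 has in the results below was not tested.

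Among the ER folding factors, 7 of the 26 measured members rose in the pek-1 mutant and 1 fell, with a list median of 0.13. Over all probe sets 2.87% rose and 1.17% fell past the test. hsp-4, which encodes a BiP chaperone and is a standard readout of ER stress in worms, had 10.89, 10.91 and 10.89 in the pek-1 mutant, against 10.28, 10.45 and 10.29 in wild type. The groups did not overlap, and the SD of the pek-1 arrays was 0.01. hsp-4 was 1.47-fold higher (log2 difference 0.56, SE 0.14, limma adjusted p = 0.0179), but the adjusted p lay between 0.0529 and 0.0955 when any array other than wild-type array 2 was left out. The protein disulfide isomerase genes pdi-6 (0.59, SE 0.11, limma adjusted p = 0.0017) and pdi-2 (0.41, SE 0.10, limma adjusted p = 0.0142) rose as well, pdi-6 in all 6 fits that left out an array and pdi-2 in 2 of them. So did dnj-27, an ER protein of the DnaJ family (0.75, SE 0.12, limma adjusted p = 0.000617), and fkb-5, a peptidyl-prolyl isomerase of the FKBP family (0.85, SE 0.15, limma adjusted p = 0.000987), both in all 6 fits. The other BiP gene, hsp-3, had a mean difference of 0.14 and did not pass (limma adjusted p = 0.646). Its arrays overlapped between the genotypes.

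The mean of the ER folding list was 8.27, 8.18 and 8.20 on the pek-1 arrays, against 8.03, 8.10 and 7.97 on the wild-type arrays, without overlap. On vector it was 7.75, 7.86 and 7.71 in the pek-1 mutant, against 7.72, 7.79 and 7.77 in wild type, with overlap. With the 6 arrays alone none of the 26 members passed, and 13 had an unadjusted p under 0.05 with 30 arrays. Without wild-type array 1, 5 members were higher and 0 lower, and hsp-4 and pdi-2 were not among the 5. That fit called 327 of all 28387 probe sets higher and 166 lower.

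The stress sensors and their factors other than pek-1 did not pass. xbp-1, the target of IRE-1 splicing, differed by -0.06 (95% interval -0.24 to 0.13). atf-6 differed by 0.10 (-0.11 to 0.32), ire-1 by -0.24 (-0.44 to -0.03, limma adjusted p = 0.232) and atf-4 by 0.21 (-0.04 to 0.46). Array signals measure transcript amount and not splicing or translation. Of 21 genes of ER-associated degradation none passed, and 0 had an unadjusted limma p under 0.05, against 4.05% and 14.9% of all probe sets. Of 43 genes of ER translocation, glycosylation and ER-Golgi transport, 2 rose and 1 fell. The risers trap-1 (0.37, SE 0.09) and trap-2 (0.42, SE 0.09) encode subunits of the translocon-associated complex and passed in 2 and 5 of the 6 fits that left out an array.

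Among 33 genes of the integrated stress response and translation initiation, 1 rose and 2 fell. The riser was asns-1, an asparagine synthetase gene whose mammalian homologue is a target of ATF4. It had 7.31, 6.89 and 7.20 in the pek-1 mutant, against 4.68, 6.63 and 5.56 in wild type. The pek-1 arrays were all higher, but wild-type array 2 lay close below the lowest of them. The difference was 1.51 (SE 0.31, limma adjusted p = 0.00484; 0.065 without wild-type array 1). eif-2Bgamma, a subunit of the exchange factor that eIF2 phosphorylation inhibits, fell by 0.49 (SE 0.12, limma adjusted p = 0.0219). cbs-1, a cystathionine beta-synthase gene, fell by 0.44 (SE 0.11, limma adjusted p = 0.0254). Both lost the call when single arrays were left out, eif-2Bgamma in 4 of 6 cases and cbs-1 in 5. No gene of the 34 aminoacyl-tRNA synthetases passed, with 9 at an unadjusted limma p under 0.05, against 4.05% and 14.9% of all probe sets. nars-2 was nearest, with a difference of -0.40 (limma adjusted p = 0.0522).

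**Figure D2:**
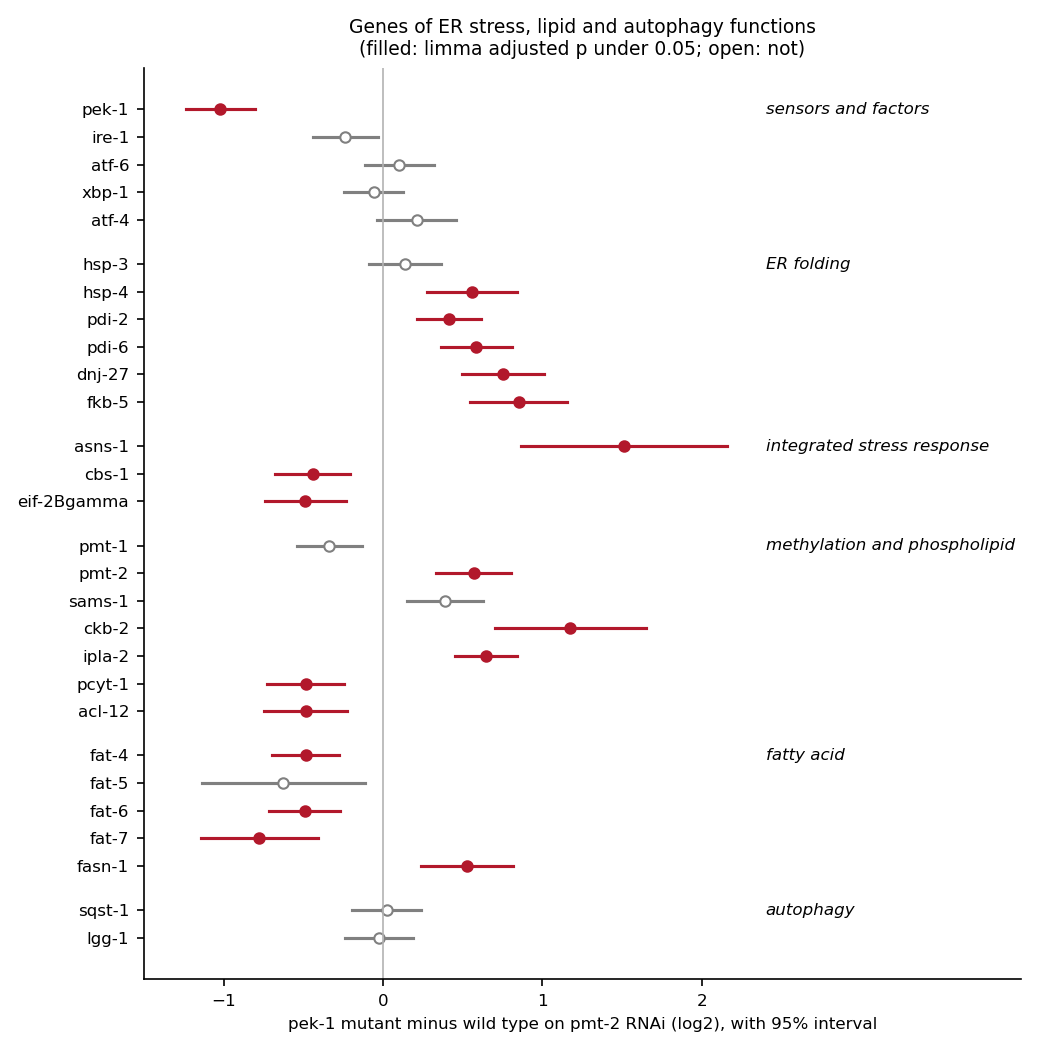
Difference in log2 signal between the pek-1 mutant and wild type on pmt-2 RNAi (x axis) with its 95% interval for 28 genes, filled where the limma adjusted p is under 0.05. hsp-4, pdi-2, pdi-6, dnj-27, fkb-5, asns-1, pmt-2, ckb-2, ipla-2 and fasn-1 lie to the right of 0, fat-4, fat-6 and fat-7 to the left, and sqst-1 and lgg-1 on it.

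Genes of lipid synthesis moved in both directions. Of 44 genes of phospholipid synthesis and remodelling, 3 rose and 5 fell, beside 2.87% and 1.17% of all probe sets. ckb-2, a choline kinase gene of the other route to phosphatidylcholine, had 10.06, 10.09 and 10.14 in the pek-1 mutant, against 9.11, 8.82 and 8.85 in wild type. Every pek-1 array was well above the highest wild-type array. It rose 2.26-fold (log2 difference 1.17, SE 0.23, limma adjusted p = 0.00288), also past the test with the 6 arrays alone and in each of the 6 fits that left out an array. On vector the ckb-2 means were 7.58 ± 0.68 in the pek-1 mutant and 7.12 ± 0.37 in wild type (SD, n = 3 arrays each), and the difference of the genotype differences was not past the test (0.71, SE 0.32, limma adjusted p = 0.359).

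ipla-2, a phospholipase A2 gene, rose by 0.65 (SE 0.09, limma adjusted p = 0.000144). It differed by -0.10 on vector, and the difference of the genotype differences was 0.75 (SE 0.13, limma adjusted p = 0.00452). pcyt-1, which encodes the enzyme that acts after choline kinase, fell by 0.48 (SE 0.12, limma adjusted p = 0.017). acl-12, an acyltransferase gene, fell by 0.48 (SE 0.13, limma adjusted p = 0.0269). With 1 array left out pcyt-1 passed in 4 of 6 fits and acl-12 in 2. The first methyltransferase, pmt-1, differed by -0.34 (SE 0.10, limma adjusted p = 0.0538) and sams-1, an S-adenosylmethionine synthetase, by 0.39 (SE 0.12, limma adjusted p = 0.0573).

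Of 34 genes of fatty acid synthesis and desaturation, 1 rose and 5 fell, and 27 of the 34 differences were negative. The shares past the test over all probe sets, for this list and the oxidation list below, were 2.87% higher and 1.17% lower. The stearoyl-CoA desaturase gene fat-7 had 11.47, 11.61 and 11.35 in the pek-1 mutant, against 12.43, 12.04 and 12.28 in wild type, without overlap. It fell by 0.77 (SE 0.18, limma adjusted p = 0.0121). Its near copy fat-6 fell by 0.49 (SE 0.11, limma adjusted p = 0.00727), and the 2 genes are alike enough that probes could be shared. fat-4, the delta-5 desaturase gene, fell by 0.49 (SE 0.10, limma adjusted p = 0.00479). fat-5, a palmitoyl-CoA desaturase gene, differed by -0.62 (SE 0.25) and did not pass (limma adjusted p = 0.201). The riser was fasn-1, the fatty acid synthase gene (0.52, SE 0.14, limma adjusted p = 0.0308), which passed in 1 of the 6 fits that left out an array. fat-4 and fat-6 passed in all 6, fat-7 in 4. Of 59 genes of fatty acid oxidation and lipolysis, 1 rose and 2 fell, the falls being ech-7 (-0.61, SE 0.14) and hacd-1 (-0.45, SE 0.11), which passed in 3 and 2 of these 6 fits. The mean of the fatty acid synthesis list was 8.81, 8.76 and 8.77 in the pek-1 mutant on RNAi, against 8.94, 8.99 and 8.91 in wild type on RNAi. On vector it was 8.21, 8.12 and 8.21 in the pek-1 mutant, against 8.23, 8.44 and 8.29 in wild type, so that on both foods every pek-1 array was below every wild-type array.

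None of 41 autophagy genes passed, with 5 at an unadjusted limma p under 0.05, against 4.05% and 14.9% of all probe sets. sqst-1, which encodes the p62 receptor of autophagy, had 10.28, 10.12 and 10.33 in the pek-1 mutant, against 10.13, 10.27 and 10.26 in wild type. The arrays overlapped, and the difference was 0.02 (95% interval -0.19 to 0.24). lgg-1, an Atg8 homologue, differed by -0.02 (95% interval -0.24 to 0.19). On vector sqst-1 had means of 6.86 in the pek-1 mutant and 6.91 in wild type. Of 71 lysosomal genes, 1 rose and 5 fell. The falls included gba-4, a glucocerebrosidase gene (-0.84, SE 0.14, limma adjusted p = 0.000648), and asp-4, an aspartyl protease gene (-0.45, SE 0.11, limma adjusted p = 0.0206), which passed in all 6 and in 2 of the 6 fits that left out an array.

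Genes of the cuticle, the collagen coat that the hypodermis rebuilds at each molt, made up the largest listed group of rises. Of 214 genes for collagens and cuticle, 46 rose in the pek-1 mutant and 4 fell, with a list median of 0.38. The shares over all probe sets were 2.87% and 1.17%. Of 26 molting-cycle and larval stage markers 15 rose and 0 fell (median 1.09), of 24 hypodermis markers 11 rose and 0 fell (median 0.73), and of 17 abu genes 10 rose and 0 fell (median 1.28). abu genes encode repetitive prion-like proteins first described in animals with a blocked unfolded protein response. 8 of the molting markers are also in the cuticle or hypodermis list, so these counts share genes.

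These lists set the wild-type arrays apart. The mean of the molting markers was 7.73, 7.51 and 7.71 on the pek-1 arrays, against 6.32, 7.53 and 6.59 on the wild-type arrays. The mean of the collagen and cuticle list was 5.85, 5.85 and 5.86 on the pek-1 arrays, against 4.75, 5.79 and 5.21 on the wild-type arrays. The 3 pek-1 arrays agreed closely, while wild-type array 2 was at or near their level and wild-type array 1 lowest. Of the genes called higher, wild-type array 2 was the highest wild-type array for all 46 cuticle genes, all 15 molting markers, all 11 hypodermis markers and all 10 abu genes. The 46 cuticle genes stood a median of 2.62 above wild-type array 1, 0.39 above array 2 and 1.57 above array 3.

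With array weights per group 44 cuticle genes were higher and 4 lower, and 15 molting markers were higher. With the 6 arrays alone 2 cuticle genes were higher and 1 lower, and no molting, hypodermis or abu gene passed. Without wild-type array 1, 10 cuticle genes were higher and 6 lower, and 3 molting markers, 3 hypodermis markers and 5 abu genes were higher. Without wild-type array 2, 98 cuticle genes, 18 molting markers, 17 hypodermis markers and 12 abu genes were higher, and without wild-type array 3 these counts were 22, 4, 5 and 7. Over all 28387 probe sets the weighted fit called 644 higher and 203 lower, and the 6 arrays alone 73 and 22. Without wild-type array 1, 2 or 3 the whole test called 327, 1530 or 417 higher and 166, 1220 or 230 lower. On vector no gene of these 4 lists passed. In young adults on vector the molting mean was 5.75, 5.64 and 5.67 in the pek-1 mutant, against 5.79, 6.12 and 5.67 in wild type, below every RNAi array of either genotype. Markers of oocytes and eggshell ran the other way among the wild-type RNAi arrays, at 9.55, 9.65 and 9.52 on the pek-1 arrays, against 9.86, 9.28 and 9.72 on the wild-type arrays. The part of developmental stage in these rises was not tested.

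**Figure D3:**
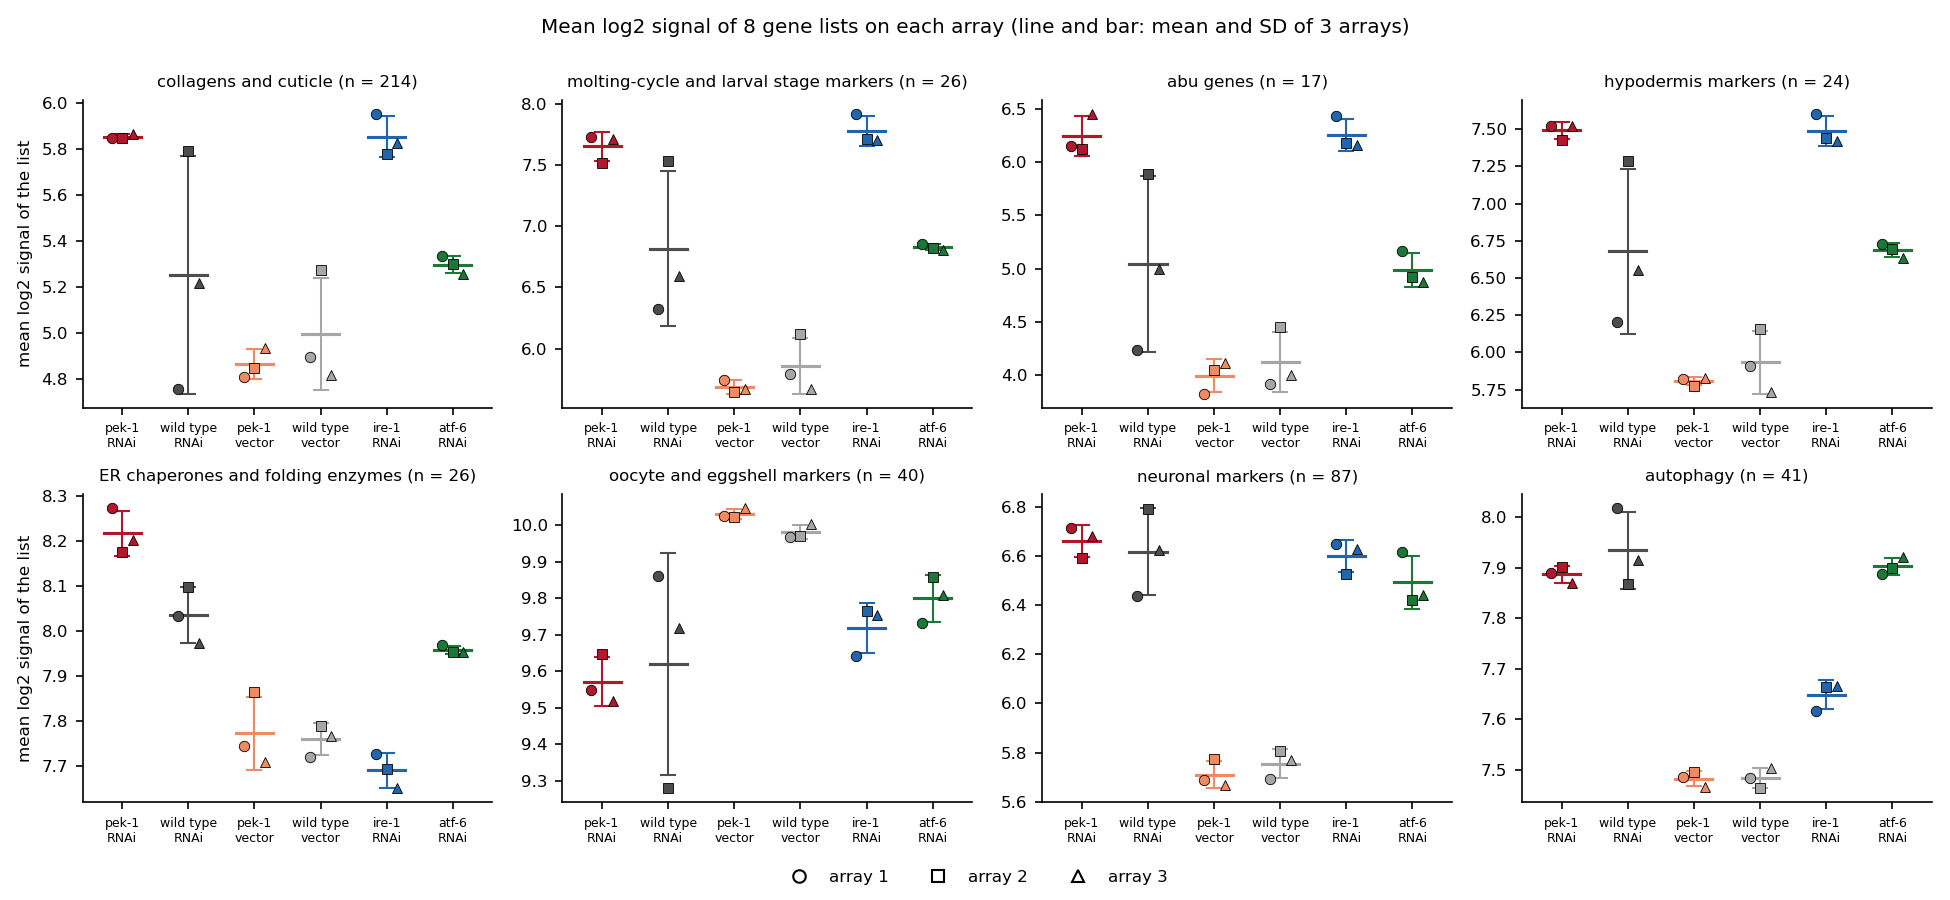
Mean log2 signal (y axis) of 8 gene lists on each array of 6 groups (x axis), with array numbers as symbols and the mean and SD of 3 arrays as line and bar. The cuticle, molting, abu and hypodermis lists are close together on the pek-1 RNAi arrays and spread on the wild-type RNAi arrays, with array 2 highest, and the oocyte list is spread in the opposite order.

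Individual cuticle genes show the same spread. col-162, a cuticle collagen gene, had 10.08, 9.68 and 10.08 in the pek-1 mutant, against 6.002, 9.09 and 7.70 in wild type. The groups did not overlap, and the difference of 2.35 (SE 0.54, limma adjusted p = 0.0114) had an adjusted p of 0.14 without wild-type array 1. abu-1 had 6.92, 7.02 and 7.21 in the pek-1 mutant, against 3.90, 5.70 and 4.57 in wild type (difference 2.33, SE 0.42, limma adjusted p = 0.00143). mlt-11, which encodes a protease inhibitor needed for molting, had 8.19, 7.85 and 8.24 in the pek-1 mutant, against 5.82, 7.72 and 6.15 in wild type (difference 1.53, SE 0.40, limma adjusted p = 0.0259), and passed in 2 of the 6 fits that left out an array. wrt-4, a hedgehog-related gene, rose by 1.69 (SE 0.31, limma adjusted p = 0.00153). col-88, col-169, col-157, abu-6, abu-7, grl-21 and bli-2 rose by between 2.02 (abu-6) and 2.48 (col-88), each with wild-type array 2 highest and wild-type array 1 lowest among the wild-type arrays. With 1 array left out, col-88, col-157 and abu-7 passed in all 6 fits, col-169 and abu-6 in 5, grl-21 in 3 and bli-2 in 2. col-19, a collagen of the adult cuticle, differed by 0.03 (95% interval -0.24 to 0.30).

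For dpy-18 and col-89, also of the cuticle list, the gap between the genotypes exceeded the spread within either. dpy-18 (Y47D3B.10, chromosome III, 11372781 to 11377880) encodes a catalytic subunit of prolyl 4-hydroxylase, the ER enzyme that hydroxylates collagen chains. It had 10.99, 10.84 and 10.995 in the pek-1 mutant on RNAi, against 8.42, 8.76 and 8.39 in wild type on RNAi. The gap between the groups was far wider than the spread within either. dpy-18 rose 5.36-fold (log2 difference 2.42, SE 0.13, limma adjusted p = 4.62e-12, also past the test with the 6 arrays alone). On vector it had 7.13, 7.37 and 7.06 in the pek-1 mutant, against 6.96, 7.28 and 6.83 in wild type, with overlap. The difference of the genotype differences was 2.26 (SE 0.19, limma adjusted p = 2.18e-07). Against the other sensor mutants on RNAi, the pek-1 mutant was 2.73 above the ire-1 mutant (SE 0.13, limma adjusted p = 5.13e-13) and 2.15 above the atf-6 mutant (SE 0.13, limma adjusted p = 1.7e-10). phy-2, another prolyl 4-hydroxylase subunit gene, differed by 0.56 and did not pass (limma adjusted p = 0.114). Its difference was 0.94 without wild-type array 2 (limma adjusted p = 2.09e-05) and 0.33 without wild-type array 1 (limma adjusted p = 0.595).

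col-89, another collagen gene, had 8.13, 8.20 and 8.19 in the pek-1 mutant on RNAi, against 4.88, 5.77 and 5.48 in wild type on RNAi. The pek-1 arrays were nearly equal and all far above the wild-type ones. The difference was 2.80 (SE 0.23, limma adjusted p = 2.99e-08), and on vector it was 0.15. dpy-18 and col-89 were the 2 rises of the cuticle list that passed with the 6 arrays alone.

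Of 88 innate immune effectors 9 rose and 5 fell, with a list median of -0.03 and 51 negative differences. Among all probe sets 2.87% rose and 1.17% fell. The 9 risers were among the 19 nlp and cnc genes of the list, and the 5 falls were among its 69 other members. This division was made after the values were seen and was not tested. The nlp and cnc families include antimicrobial peptides that the epidermis is known to make after fungal infection or wounding. nlp-34 (B0213.17, chromosome V, 3978814 to 3979119) had 8.97, 8.55 and 8.96 in the pek-1 mutant, against 5.97, 6.01 and 5.36 in wild type. It rose 8.25-fold (log2 difference 3.04, SE 0.25, limma adjusted p = 2.99e-08), the largest rise of any listed gene, without overlap. nlp-30 (chromosome V, 3981965 to 3982730) had 3.02, 3.40 and 3.33 in the pek-1 mutant, against 2.32, 1.85 and 1.77 in wild type. nlp-29 (chromosome V, 3984398 to 3984834) had 5.79, 5.03 and 5.56 in the pek-1 mutant, against 3.68, 4.098 and 3.77 in wild type. These neighbours on chromosome V were each higher on every pek-1 array, nlp-30 by 1.27 (SE 0.20, limma adjusted p = 0.000456) and nlp-29 by 1.61 (SE 0.31, limma adjusted p = 0.00236). Their sequences are related, and signal shared between their probe sets was not tested.

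cnc-4, a caenacin gene elsewhere on chromosome V, had 5.81, 5.32 and 5.87 in the pek-1 mutant, against 3.85, 4.24 and 3.58 in wild type (difference 1.78, SE 0.18, limma adjusted p = 5.7e-07). nlp-34, nlp-30, nlp-29 and cnc-4 passed with the 6 arrays alone. On vector their differences were 0.92, 0.21, 0.41 and 0.14 and did not pass. The difference of the genotype differences passed for nlp-34 (2.12, SE 0.36, limma adjusted p = 0.0024) and cnc-4 (1.64, SE 0.25, limma adjusted p = 0.00086) and not for nlp-29 (1.196, limma adjusted p = 0.206) or nlp-30 (1.06, limma adjusted p = 0.0669). fip-6, named for a fungus-induced protein family, had 4.09, 3.71 and 4.50 in the pek-1 mutant, against 1.48, 2.03 and 1.89 in wild type, without overlap (difference 2.301, SE 0.29, limma adjusted p = 2.15e-05). fip-6 passed with the 6 arrays alone too. The 5 falls among the immune effectors included lys-2, a lysozyme gene (-0.86), and spp-14 (-0.41) and spp-15 (-0.56), saposin-like genes. These saposin-like genes and lys-2 are not among the 125 genes chosen for naming. With array weights per group 3 of the 88 immune effectors were lower, and with the 6 arrays alone 0.

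srlf-34 had 7.77, 7.26 and 7.89 in the pek-1 mutant, against 4.46, 4.54 and 4.97 in wild type, a rise of 2.98 (SE 0.18, limma adjusted p = 5.91e-11). sre-15, a chemoreceptor gene, had 4.75, 4.34 and 5.19 in the pek-1 mutant, against 2.37, 2.26 and 1.64 in wild type, a rise of 2.67 (SE 0.22, limma adjusted p = 2.99e-08). bus-18, an acyltransferase gene, had 4.92, 4.195 and 5.12 in the pek-1 mutant, against 2.73, 2.93 and 2.96 in wild type, a rise of 1.87 (SE 0.20, limma adjusted p = 1.53e-06). All 3 passed with the 6 arrays alone, and their differences on vector were 0.17, 0.06 and -0.15. sre-15 and bus-18, like fip-6 and nlp-30, had means under 5 in both genotypes, as did 17463 of the 28387 probe sets and 259 of the 1149 calls.

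In all, 73 genes passed both with 30 arrays and with the 6 arrays alone, 53 of them higher and 20 lower, and 11 of the 73 are in a gene list. Beside those already described they include swt-3, a SWEET family sugar transporter gene (1.61), far-4, of the fatty acid and retinol binding proteins (1.397), ins-20, an insulin-like peptide gene (1.28), srp-7, a serpin gene (1.08), cdr-4, named for its response to cadmium (1.18), and the nuclear receptor gene nhr-43 (1.12). Their differences on vector lay between -0.55 (swt-3) and 0.07 (ins-20), none past the test. These genes, haf-6, bus-18, nhr-17, phy-2, col-19, pdi-2 and nlp-30 were chosen for naming after their values were seen.

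**Figure D4:**
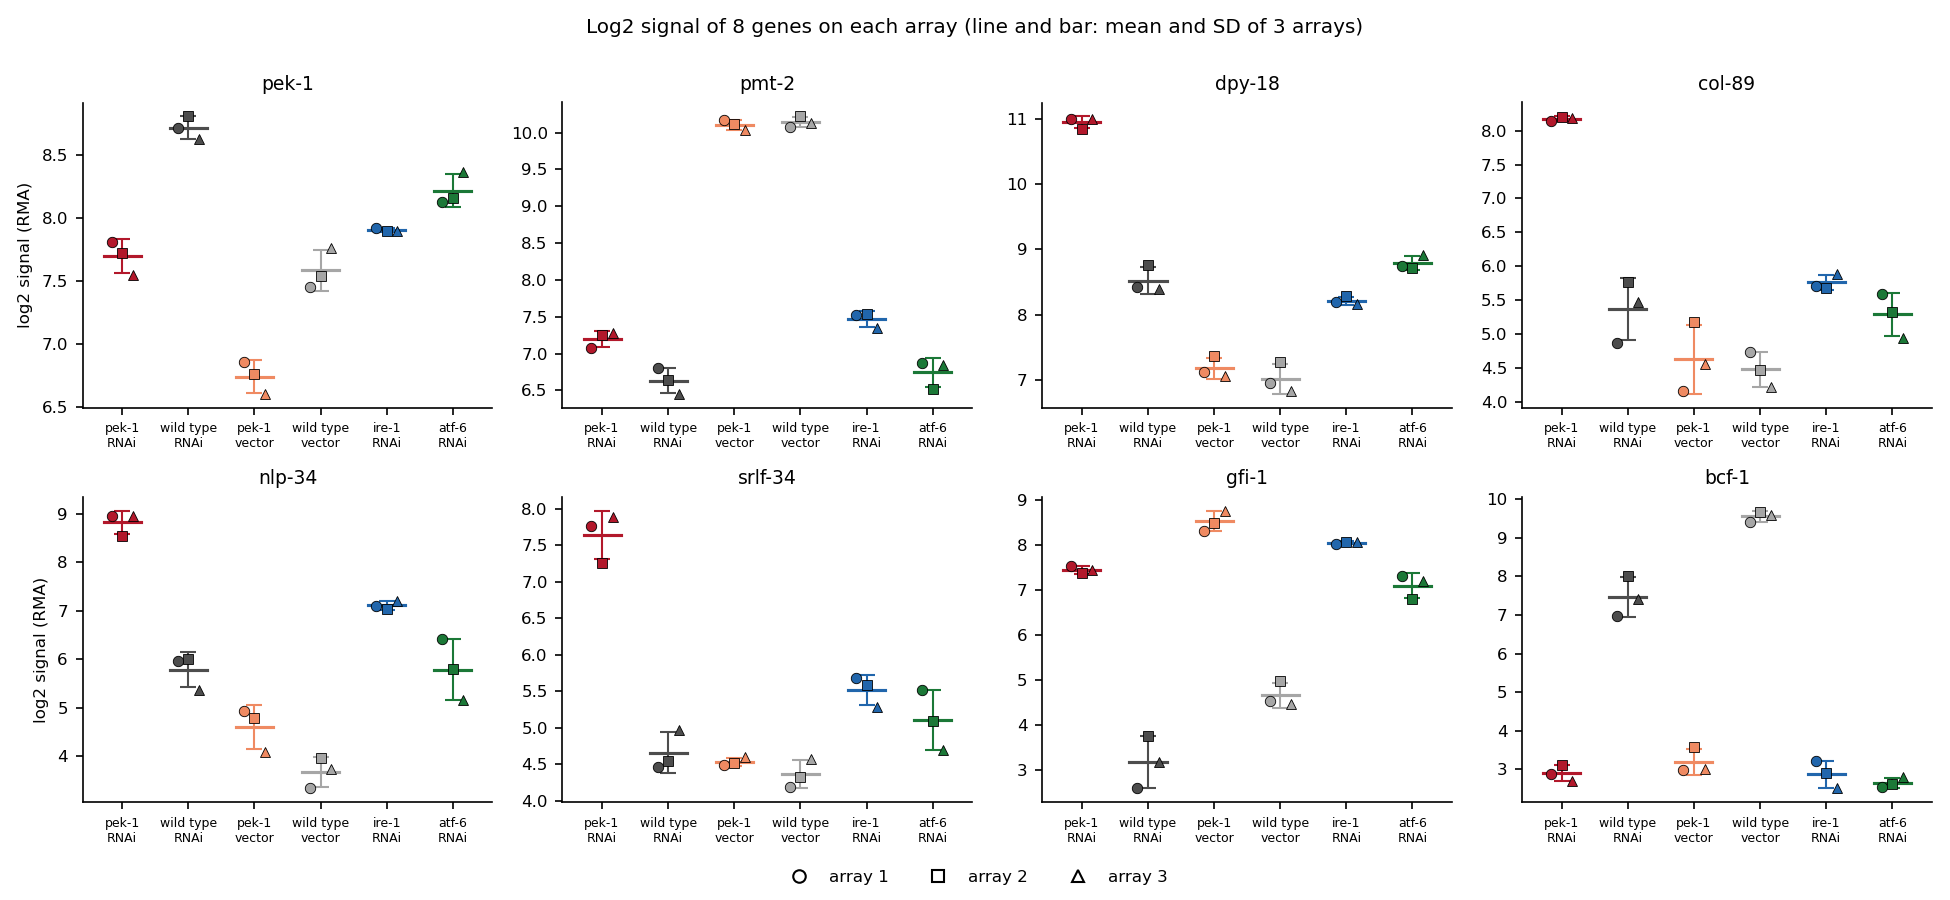
Log2 signal (y axis) of 8 genes on each array of 6 groups (x axis), with the mean and SD of 3 arrays as line and bar. dpy-18, col-89, nlp-34 and srlf-34 are highest on the pek-1 RNAi arrays. gfi-1 and bcf-1 separate the pek-1, ire-1 and atf-6 mutants from wild type on RNAi, and the pek-1 mutant from wild type on vector.

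The falls included 2 of 24 cytosolic heat shock genes, beside a share of 1.17% lower past the test over all probe sets. hsp-16.2, a small heat shock protein gene, had 4.59, 4.40 and 4.69 in the pek-1 mutant on RNAi, against 6.72, 6.45 and 5.98 in wild type on RNAi. The groups did not overlap, and it fell by 1.82 (SE 0.34, limma adjusted p = 0.00213). hsp-70, an inducible heat shock gene, had 5.34, 4.86 and 5.23 in the pek-1 mutant, against 6.17, 6.64 and 6.37 in wild type, and fell by 1.25 (SE 0.22, limma adjusted p = 0.00101). Both passed with the 6 arrays alone. On vector hsp-16.2 differed by -0.85 (SE 0.34, limma adjusted p = 0.482) and hsp-70 by -0.53 (SE 0.22, limma adjusted p = 0.494). The third call among 24 cytosolic heat shock genes was a rise, of hsp-43 (0.65, SE 0.10, limma adjusted p = 0.00029), beside a share of 2.87% higher over all probe sets. The nuclear receptor gene nhr-17 fell by 1.096 (SE 0.11, limma adjusted p = 5.7e-07), with 9.32, 9.15 and 9.08 in the pek-1 mutant, against 10.26, 10.20 and 10.38 in wild type. nhr-17 also passed with the 6 arrays alone. Most of the other largest falls were of genes known by sequence name alone, with signals under 5 in the pek-1 mutant. The differences were -1.41 (SE 0.16) for Y110A2AL.9, -1.598 (SE 0.25) for F09C6.13, -1.80 (SE 0.39) for C09G12.5, -1.41 (SE 0.27) for C48B4.12, -1.398 (SE 0.28) for K03D3.5, -1.38 (SE 0.24) for F59B2.12, -1.37 (SE 0.18) for Y102A5C.36, -1.36 (SE 0.29) for srw-85 and -1.25 (SE 0.14) for E02H9.9. Of these, all but C09G12.5, K03D3.5 and srw-85 passed with the 6 arrays alone.

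The largest differences of all were present without RNAi as well. gfi-1 (F57F4.3, chromosome V, 6392519 to 6399904) had 7.53, 7.36 and 7.44 in the pek-1 mutant on RNAi, against 2.60, 3.77 and 3.19 in wild type on RNAi. Its neighbour bcf-1 (F57F4.4, chromosome V, 6401352 to 6408767) had 2.88, 3.11 and 2.69 in the pek-1 mutant on RNAi, against 6.96, 7.999 and 7.40 in wild type on RNAi. gfi-1 rose by 4.26 (SE 0.23, limma adjusted p = 4.62e-12) and bcf-1 fell by 4.56 (SE 0.22, limma adjusted p = 8.08e-13), both also past the test with the 6 arrays alone. On vector the differences were 3.86 (SE 0.23, limma adjusted p = 4.69e-11) for gfi-1 and -6.36 (SE 0.22, limma adjusted p = 1.03e-15) for bcf-1. The ire-1 and atf-6 mutants on RNAi were at 8.05 and 7.09 for gfi-1 and at 2.88 and 2.65 for bcf-1, and none of these differed from the pek-1 mutant past the test. haf-6, an ABC transporter gene whose mutants are known for weak RNAi, had 4.59, 4.74 and 4.77 in the pek-1 mutant on RNAi, against 6.17, 5.80 and 5.70 in wild type on RNAi. On RNAi haf-6 differed by -1.19, also past the test with the 6 arrays alone. It was lower by 1.68 on vector too (difference -1.68, SE 0.14, limma adjusted p = 2.98e-08), and the ire-1 and atf-6 mutants on RNAi stood at 4.78 and 4.87.

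pdpr-1, on chromosome I and named as a regulatory subunit of pyruvate dehydrogenase phosphatase, had 6.85, 6.96 and 6.81 in the pek-1 mutant on RNAi, against 8.78, 8.64 and 8.74 in wild type on RNAi. It fell by 1.85 (SE 0.08, limma adjusted p = 3.86e-14). On vector it had 7.11, 7.08 and 7.17 in the pek-1 mutant, against 8.70, 8.69 and 8.61 in wild type. It differed from the other sensor mutants too, by -1.81 from the ire-1 mutant (SE 0.08, limma adjusted p = 3.17e-14) and by -1.86 from the atf-6 mutant (SE 0.08, limma adjusted p = 3.19e-14).

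The differences on vector come from other arrays than those on RNAi, but both tests share the spread of all 30 arrays. On vector 32 of the 28387 probe sets passed (0.113%), 20 higher (0.0705%) and 12 lower (0.0423%) in the pek-1 mutant, and 5 passed with the spread of the 6 vector arrays alone. Of the 32, 13 passed in the same direction on RNAi (40.6% of the vector calls, 1.13% of the RNAi calls) and 0 in the opposite direction. The test of the difference of genotype differences called 353 probe sets (1.24%), 289 more positive on RNAi and 64 more negative, and 18 cuticle genes were among the 289 and 3 among the 64.

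**Figure D5:**
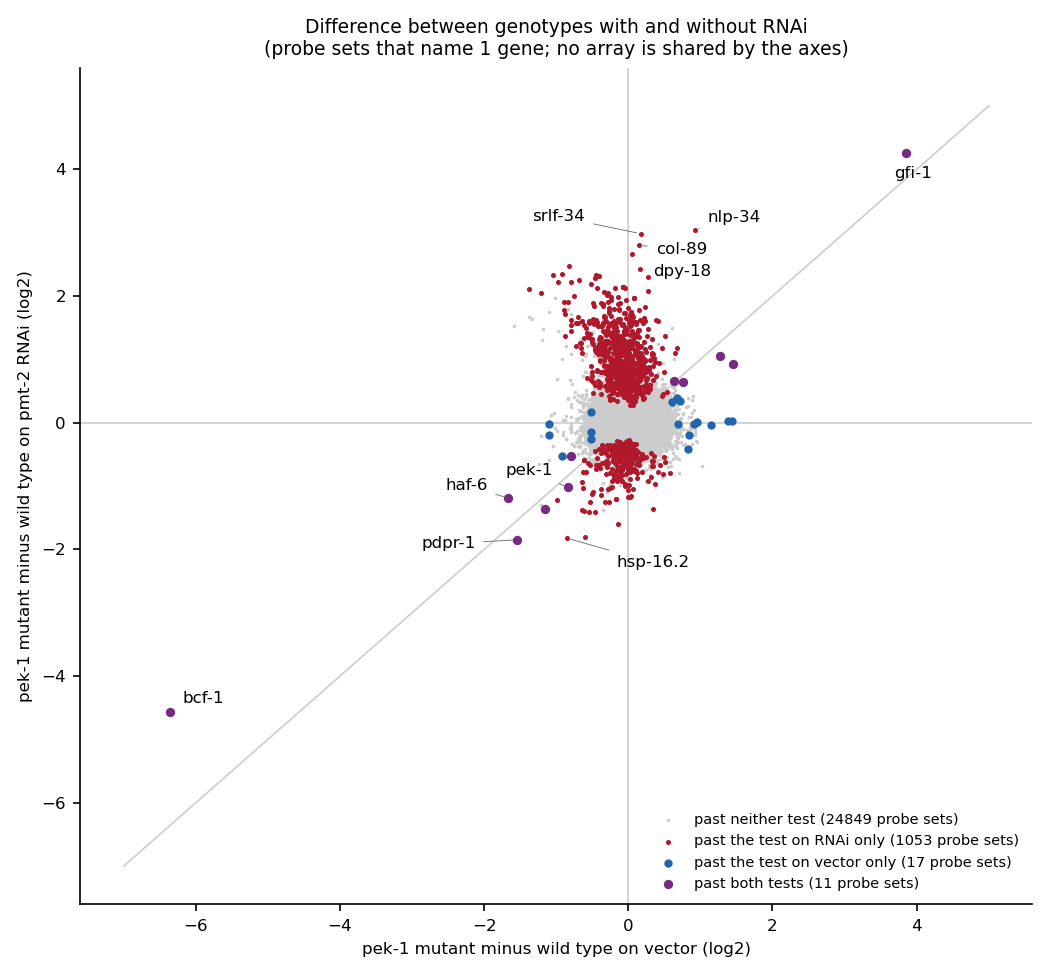
Difference in log2 signal between the pek-1 mutant and wild type on vector (x axis) against the same difference on pmt-2 RNAi (y axis), 1 point per probe set that names 1 gene, coloured by which test it passed. gfi-1, haf-6, pdpr-1 and pek-1 lie near the diagonal, bcf-1 lies at the lower left, and dpy-18, col-89, srlf-34 and most other called probe sets lie along the vertical line at 0.

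Against the other sensor mutants on the same RNAi, 2169 probe sets differed between the pek-1 and the ire-1 mutant (7.64%), 4.23% higher and 3.41% lower in the pek-1 mutant. Between the pek-1 and the atf-6 mutant 2241 differed (7.89%), 5.17% higher and 2.73% lower in the pek-1 mutant. The ER folding list differed most from the ire-1 mutant, with 16 of 26 members higher in the pek-1 mutant and 0 lower. hsp-4 was 1.71 higher in the pek-1 than in the ire-1 mutant (SE 0.14, limma adjusted p = 5.65e-09) and ckb-2 4.44 higher (SE 0.23, limma adjusted p = 1.19e-12). Against the atf-6 mutant 9 ER folding members were higher and 0 lower. The molting markers were the reverse, with 0 higher and 1 lower against the ire-1 mutant and 14 higher and 0 lower against the atf-6 mutant. Their mean was 7.73, 7.51 and 7.71 on the pek-1 arrays, and the plot of list means shows the ire-1 RNAi arrays at that level and the atf-6 RNAi arrays nearer the wild-type mean. Of the 214 cuticle genes, 6 were higher and 10 lower against the ire-1 mutant, and 63 higher and 7 lower against the atf-6 mutant. dpy-18 and col-89 exceeded both other mutants, while col-162 differed past the test from the atf-6 mutant (2.19, limma adjusted p = 0.0123) and not from the ire-1 mutant (0.41, limma adjusted p = 0.778).

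Few genes of the remaining lists passed. Over all probe sets 2.87% rose and 1.17% fell past the test. An unadjusted limma p under 0.05 was reached by 14.9%, and 8.68% were lower without overlap. Among cell type markers, 1 of 36 muscle genes rose (unc-68, the ryanodine receptor, 0.86, SE 0.15) and 3 fell, which were pat-10 (-0.50, SE 0.09), mlc-2 (-0.77, SE 0.20) and tnt-2 (-0.42, SE 0.12), all of the contractile apparatus. With 1 array left out unc-68 and pat-10 passed in all 6 fits, mlc-2 in 1 and tnt-2 in 2. Of 87 neuronal markers 1 fell, tbh-1, the tyramine beta-hydroxylase gene (-0.76, SE 0.13, limma adjusted p = 0.000894). No sperm (40), oocyte and eggshell (40), germ line and meiosis (34) or intestine (28) marker passed, with 1, 5, 7 and 5 at an unadjusted limma p under 0.05. Without wild-type array 2, 3 oocyte and eggshell markers were higher and 14 lower, and 4 germ line markers were lower. In the same fit 4 intestine markers and 1 sperm marker were higher. That fit called 1530 of all 28387 probe sets higher and 1220 lower, more than the main test did. Of 203 detoxification genes 6 rose and 3 fell, counts near the shares over all probe sets. They ran from gst-5, a glutathione transferase gene (0.87, SE 0.13), to ugt-18, a glucuronosyltransferase gene (-1.16, SE 0.27), which passed in 6 and 4 of the 6 fits that left out an array. sod-4, the extracellular superoxide dismutase gene, was the 1 call among 39 oxidative stress genes (0.63, SE 0.14, limma adjusted p = 0.0105). vit-2 was the 1 call among 5 vitellogenins (-0.48, SE 0.12, limma adjusted p = 0.0172). sod-4 and vit-2 each passed in 2 of the 6 fits. Of 23 genes of the mitochondrial unfolded protein response tomm-20 fell (-0.36, SE 0.10), and of 44 respiratory chain genes hpo-19 fell (-0.35, SE 0.08). With 1 array left out tomm-20 passed in 1 of 6 fits and hpo-19 in 3. In the mitochondrial list 20 of 23 differences were negative, 10 members had an unadjusted limma p under 0.05 and 9 were lower without overlap. Its mean was 7.79, 7.76 and 7.75 on the pek-1 arrays, against 7.99, 7.87 and 7.87 on the wild-type arrays. In the respiratory chain list 37 of 44 differences were negative, 9 members had an unadjusted limma p under 0.05 and 13 were lower without overlap. Its mean was 9.11, 9.13 and 9.05 on the pek-1 arrays, against 9.18, 9.19 and 9.22 on the wild-type arrays, and neither list mean overlapped between the genotypes. None of 32 proteasome and 81 ribosomal protein genes passed, with 3 of each list at an unadjusted limma p under 0.05. Of 26 genes of the S-adenosylmethionine cycle and phosphoethanolamine methylation, pmt-2 itself rose and cbs-1 and atic-1 fell, the last being a gene of purine synthesis (-0.44, SE 0.12, limma adjusted p = 0.0337, past the test in 2 of the 6 fits). In whole animals, fewer cells of a type and less RNA per cell cannot be told apart.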

How the data were processed

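Per the submitters' processing notes, the authors normalised the arrays with RMA, and no version is given. The deposited value table holds log2 signals per array for 29317 probe sets, of which the 28387 that are also in the deposited comparison tables were used. Per the file headers, those tables give a bi-weight mean and an SD of the log2 signals per group. The SDs of the 3 arrays equalled the deposited SDs of all 4 groups checked within 0.006 (0 exceptions). The comparison was defined by the labels pek-1 mutant and wild type, both on pmt-2 RNAi. Plain means of the arrays were tested here, since they keep the values per array, and the deposited bi-weight means served as an alternative. Differences of bi-weight means departed from those of plain means by a median of 0.06 and by 0.42 at the 99th percentile.

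limma 3.58.1 in R 4.3.3 was fitted to 30 arrays with 1 coefficient per group (20 residual degrees of freedom, 24.3 with the prior). p-values were adjusted by Benjamini-Hochberg over 28387 probe sets at 0.05. On data simulated with each group's own spread (10 runs, 200 changed probe sets), 10.8% of the calls were false. The test found 39.6% of the 1.5-fold changes, 81.1% of the 2-fold and 99.1% of the 4-fold ones, with 0 of the wrong sign. With array weights per group 4.90% were false and 74.8% of 2-fold changes were recovered. The simulated noise was drawn separately for each probe set, with 1 spread factor per group. In the data many genes shared their deviations, wild-type array 2 being the highest wild-type array for 693 of the 816 higher calls. The simulated rates therefore need not hold for the calls reported here. No filter on dim probe sets was applied in the main test. The number of arrays limits the precision.

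Of the probe sets 25930 name 1 gene, 651 several and 1806 none, and 25596 matched a locus of the RefSeq gene table, by which 2556 symbols were updated. For the lists, each gene was read from 1 probe set, chosen by the highest mean over 30 arrays. The members and the 31 lists were chosen with earlier results of these data known. Named genes were 16 fixed ones, the 12 largest non-overlapping rises and falls past the test, up to 4 called members of each list (2 where none was called) and the 5 largest of each direction in the difference of genotype differences. Samples were not paired by replicate number in the main test. The deviations of same-numbered pek-1 and wild-type RNAi arrays correlated at -0.12, -0.26 and -0.03. For pek-1 and ire-1 RNAi arrays these values were 0.04, 0.09 and -0.03, and for pek-1 and atf-6 RNAi arrays 0.12, 0.09 and -0.02. With 3 arrays per group they cannot exclude a batch shared by number.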

Additional observations from a re-analysis of the deposited data

Results flagged for a closer look

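For 38 of the 125 named genes, the difference between the pek-1 mutant and wild type on pmt-2 RNAi differed from the one on vector in the test of that difference itself (limma interaction, adjusted p under 0.05), 29 of them in the positive direction and 9 in the negative. Over all probe sets 1.24% passed this test, but many of these genes were chosen for a large RNAi difference or for this very value, so the share of 38 in 125 is set partly by that choice and the values below are a description. Values are the genotype difference on RNAi minus that on vector, on the log2 scale. Among genes whose rise on RNAi also passed with the 6 arrays alone these were 2.81 for srlf-34, 2.65 for col-89, 2.61 for sre-15, 2.26 for dpy-18, 2.12 for nlp-34, 2.02 for fip-6, 2.02 for bus-18 and 1.64 for cnc-4. Among cuticle, molting, hypodermis and abu genes with a wide spread of the wild-type RNAi arrays they were 3.49 for bli-2, 3.37 for col-169, 3.301 for col-88, 3.27 for col-162, 2.94 for abu-7, 2.78 for abu-1, 2.73 for col-157, 2.32 for abu-6, 2.27 for pqn-74, 2.11 for bus-8B, 2.08 for mlt-9 and 2.02 for wrt-4. R02F11.1, which is in none of the lists, had 3.25. Smaller positive values were 1.27 for nlp-33, 1.11 for unc-68, 0.92 for gst-5, 0.75 for ipla-2, 0.69 for cpr-1 and 0.68 for hsp-43. bcf-1 gave 1.80, with a fall in both conditions that was smaller on RNAi (-4.56) than on vector (-6.36). For fln-2 the value was 0.91, with differences of -0.20 on RNAi and -1.105 on vector, and it was chosen for naming after its values were seen. The negative values were -1.71 for srw-85, -1.46 for F09C6.13, -1.38 for DH11.2, -1.35 for K08D8.12, -1.29 for F14D2.14, -1.18 for ugt-4, -0.99 for E02H9.9, -0.95 for Y110A2AL.9 and -0.77 for tbh-1. With the arrays of the 4 groups alone 36 probe sets passed this test, against 353 with 30 arrays.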

How the results depend on the processing

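No named gene past the test changed direction under any alternative run. The 1149 probe sets past the test became 141 with the deposited bi-weight means and SDs and 95 with the spread of the 6 arrays alone, and leaving out 1 array at a time gave 493 to 2750. The low end was without wild-type RNAi array 1 and the high end without wild-type RNAi array 2. Without wild-type array 3 there were 647, without pek-1 array 1 609, without pek-1 array 2 875 and without pek-1 array 3 564. The other counts lay within 1.5 times, at 1413 with a trended prior, 1106 with each array centred, 864 with at least 1.5-fold and 847 with array weights per group, which was chosen after seeing the data. A minimum mean log2 signal of 5 gave 1581 of fewer probe sets tested, 920 higher and 661 lower, against 816 and 333 without it. The 353 calls of the difference of genotype differences became 13 with bi-weight means, 36 with the arrays of the 4 groups alone, 542 with the signal minimum, and 146 to 1532 with 1 array left out. The 32 calls on vector became 5 with their 6 arrays alone, also chosen after seeing the data. The 155 called list members became 239 with the signal minimum and 11 with the 6 arrays alone, and 69, 282 and 87 without wild-type RNAi array 1, 2 or 3, alternatives added after seeing the data, as was the weighted count of 129. The cause of these shifts was not tested. With the replicate number as a block, 1129 probe sets passed in the main comparison, 346 in the difference of genotype differences and 32 on vector, and the block changed the call of 1 of 125 named genes. Among the 125 named genes, 9 lost the call with array weights and 66 with the 6 arrays alone. Of the calls, 259 had a mean log2 signal under 5 in both groups, where background limits what an array can resolve. The planned description of promoter motifs was not run.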
